A study of Mus musculus with 96 samples.

Results

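Endothelial cells (EC) isolated from mouse hearts 14 days after myocardial infarction (Day 14) were compared with EC of uninjured hearts (Day 0). The comparison took 8 of the 96 total RNA libraries of the series, the 4 titled EC Day 14 and the 4 titled EC Day 0. It started from all genes listed for them, and a filter on low counts left 18151 of 50973 to be tested. Genes to be tested were not chosen by their values in any other way. The mice of both groups were male C57Bl/6J. Day 14 mice were aged 12 to 14 weeks when the left anterior descending coronary artery was tied off for good. The age of Day 0 mice was not stated in the methods. Day 0 mice had no infarction and no operation, so the effects of the infarct and of the surgery cannot be told apart. Hearts were digested with collagenase, cells carrying CD45 were removed on beads, and EC were taken from the remainder with beads against CD144 (VE-cadherin, the product of Cdh5). Each library pooled cells of 3 mice per the labels, or of 2 where a sample was missing per the methods. Which libraries held 2 was not given in the sources used here. The series also holds cardiomyocytes (CM), fibroblasts (FB) and hematopoietic cells (HC), and EC at Day 1, Day 3, Day 7 and Day 28. The replicates are described both as biological and as technical, so a p-value here measures the spread between these pools.

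Endothelial cells line the vessels and the inner surface of the heart, where they control the passage of solutes and leukocytes. They deliver fatty acids to the muscle and lay down the basement membrane under them. After an infarct they take part in the regrowth of capillaries, display selectins and other adhesion molecules to passing leukocytes, and border a scar whose collagen is made mostly by activated fibroblasts. Some can switch on mesenchymal genes, a shift called endothelial mesenchymal transition.

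Levels are given as CPM, the estimated reads of a gene scaled to a common library total after TMM normalisation, which are not divided by gene length. Fold changes are log2 of Day 14 over Day 0 with their standard error (SE), and a gene was called when the edgeR quasi-likelihood test gave a Benjamini-Hochberg adjusted p under 0.05. The Day 14 libraries held 19303517 to 23223538 estimated reads and the Day 0 libraries 21879819 to 28574318. Endothelial marker genes were abundant in all 8 libraries. Cdh5 averaged 941 ± 41.8 CPM in Day 14 EC, against 834 ± 116 CPM in Day 0 EC (SD, n = 4 each) and Pecam1, an adhesion molecule of endothelial junctions, averaged 639 ± 71.2 CPM in Day 14 EC, against 584 ± 53.3 CPM in Day 0 EC. The 4 EC markers together reached 3612 to 3767 CPM in Day 14 EC and 3380.1 to 4420.2 CPM in Day 0 EC, whereas the 3 HC markers tested summed to 2.45 to 7.45 CPM in Day 14 EC and 2.70 to 3.58 CPM in Day 0 EC. Ptprc, which encodes the CD45 used for depletion, was among those 3.

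Day 0 replicates 1 and 2 stood apart from the other 6 libraries. A set of 662 genes averaged under 5 CPM in Day 14 EC and lay on the strand opposite an abundant gene (at least 50 CPM). In those 2 libraries these genes summed to 4826.7 and 4670.4 CPM, against 317 to 339 CPM in Day 0 replicates 3 and 4. Their sums in Day 14 EC, 344 to 390 CPM, were bounded by the limit that chose them. The first principal component held 50.4% of the variance and set replicates 1 and 2 (91.4 and 88.0) far from Day 0 replicates 3 and 4 (6.21 and -6.16) and from the Day 14 libraries (-47.3 to -42.1). The mitochondrial gene mt-Nd6, whose strand is opposite mt-Nd5, was also high in these 2 libraries, with 417, 415, 312 and 280.3 CPM in Day 14 EC, against 3004, 3617, 380.0 and 506 CPM in Day 0 EC. It fell by the test over all 8 libraries (log2 fold change -2.40 ± 0.49, adjusted p = 0.00194), but had a log2 fold change of -0.32 and an adjusted p of 0.438 without Day 0 replicates 1 and 2. Results are therefore given with and without these libraries. The reduced set below means all libraries but Day 0 replicates 1 and 2.

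Of 18151 genes tested, 2317 (12.8%) were called higher and 2590 (14.3%) lower at Day 14. The median log2 fold change over all of them was -0.0020. More than 2-fold differences were fewer, at 756 genes higher and 837 lower. Without Day 0 replicates 1 and 2, when 2 Day 0 libraries remained, 795 of 18766 genes (4.24%) were called higher and 765 (4.08%) lower, and 680 of these higher and 720 of these lower genes were also called with all libraries. On the authors' TPM values, of which mitochondrial tRNA took 9.88 to 15.2% in Day 14 EC and 22.6 to 55.6% in Day 0 EC, limma on log2(TPM + 1) gave a median log2 fold change of 0.42 over the genes tested, with 11243 genes higher and 141 lower. With each library centred on its own median it gave 2889 higher and 6520 lower. Levels in all 4 Day 14 libraries lay above all 4 Day 0 libraries in 12.1% of genes and below them in 11.8%. The 12 highest and 12 lowest genes described next are those of the naming rule, which required at least 10 CPM on average, no overlap between the groups, and a call both with and without replicates 1 and 2. Of these 24 genes, 8 overlap a gene annotated on the other strand. How many of their reads came from that gene was not measured, and Day 0 replicates 1 and 2 are the libraries with many opposite-strand reads.

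Apart from Cfb, the 12 highest genes under the naming rule encode secreted proteins of the extracellular matrix or its enzymes. Sfrp2, a secreted antagonist of Wnt signalling (chromosome 3, 83766321 to 83774316, plus strand, GRCm38), had 39.2, 46.7, 68.9 and 66.9 CPM in Day 14 EC, against 2.73, 1.46, 2.03 and 1.31 CPM in Day 0 EC. The Day 14 and Day 0 libraries were far apart, and the fitted difference was 29.6-fold (log2 fold change 4.89 ± 0.41, adjusted p = 3.91e-07). Ltbp2, a matrix protein related to the binding proteins of latent TGF-beta (chromosome 12, 84783212 to 84876532, minus strand), followed with 37.0, 35.9, 58.1 and 61.5 CPM in Day 14 EC, against 3.28, 1.20, 1.75 and 1.89 CPM in Day 0 EC (log2 fold change 4.58 ± 0.55, adjusted p = 2.3e-05). Both genes were at low levels in all 4 Day 0 libraries, and their changes without Day 0 replicates 1 and 2 were 5.05 and 4.73.

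The fibrillar collagens rose as well, and were already plainly present at Day 0. Col1a1, the main chain of type I collagen (chromosome 11, 94936224 to 94953042, plus strand), had 349.5, 536, 589 and 306 CPM in Day 14 EC, against 48.2, 36.3, 51.5 and 29.5 CPM in Day 0 EC (log2 fold change 3.43 ± 0.35, adjusted p = 3.59e-06). Col3a1, the chain of type III collagen that accompanies it in healing tissue, had 734, 971, 1263 and 706 CPM in Day 14 EC, against 124, 113, 122 and 106 CPM in Day 0 EC (log2 fold change 2.98 ± 0.29, adjusted p = 1.49e-06). For both collagens Day 14 replicates 2 and 3 were the highest, and no Day 14 library came near the Day 0 range. Col12a1, a fibril-associated collagen, rose by 3.58 ± 0.34, and Lox, the enzyme that cross-links collagen and elastin, by 2.83 ± 0.31.

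Cartilage-type and matricellular proteins were the other large group. Cilp, first known from cartilage and also made by cardiac fibroblasts, had 54.9, 39.0, 77.0 and 66.3 CPM in Day 14 EC, against 6.36, 2.10, 5.97 and 3.12 CPM in Day 0 EC (log2 fold change 3.76 ± 0.42, adjusted p = 1.18e-05). Comp, a pentameric thrombospondin that binds collagen, had 25.1, 22.6, 42.0 and 47.5 CPM in Day 14 EC, against 6.41, 1.46, 2.19 and 3.08 CPM in Day 0 EC (log2 fold change 3.40 ± 0.50, adjusted p = 0.000144). In both genes Day 0 replicate 1 was the highest of its group and still lay below the lowest Day 14 library. Tnc, the matrix protein tenascin C that appears at sites of repair, had 26.3, 52.6, 45.2 and 17.3 CPM in Day 14 EC, against 4.28, 4.16, 4.43 and 3.89 CPM in Day 0 EC (log2 fold change 3.08 ± 0.40, adjusted p = 4.69e-05), with the Day 0 libraries within a narrow range and the Day 14 libraries spread between replicate 4, the lowest, and replicate 2, the highest. Thbs1, a thrombospondin that activates latent TGF-beta, rose by 2.90 ± 0.31, and Mfap4, an elastic-fibre protein, by 2.99 ± 0.42.

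**Figure D1:**
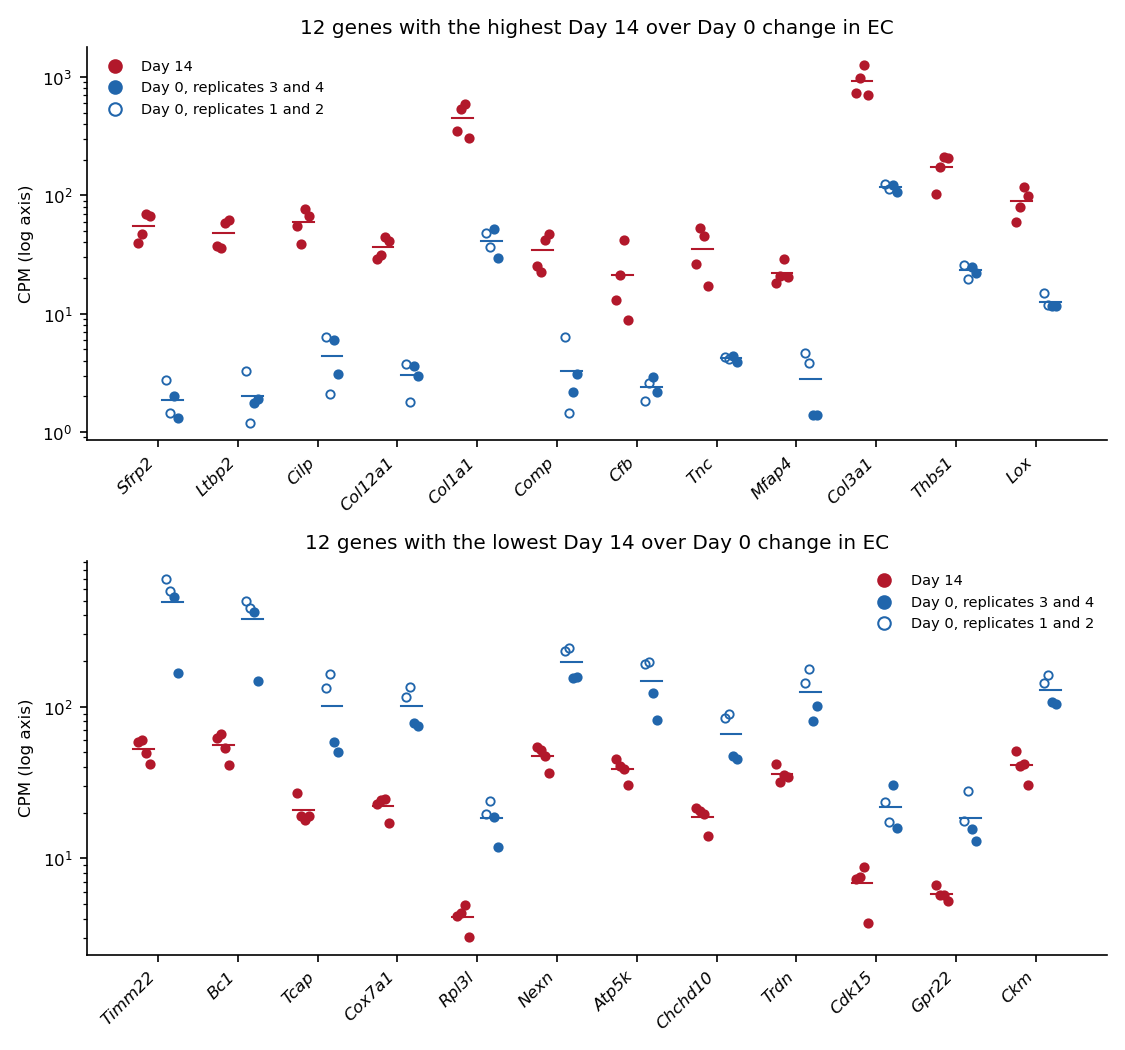
Levels (CPM, log axis) of the 12 genes with the highest change (top) and the 12 with the lowest change (bottom) in each of the 4 Day 14 and 4 Day 0 EC libraries. Each point is 1 library, open circles are Day 0 replicates 1 and 2, and horizontal bars are group means. The rule that chose the 24 genes required groups that do not overlap. For Timm22 and Bc1 Day 0 replicate 4 (168 and 148 CPM) lies below the other Day 0 libraries.

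Over the whole list of collagens and other matrix proteins, 37 of 39 genes were called higher and none lower at Day 14, with a median log2 fold change of 1.94 against -0.0020 for all genes tested. The values of the 39 ran between 0.38 and 4.29, and their summed level was 5636 to 8712 CPM in Day 14 EC and 2163 to 2779 CPM in Day 0 EC. Without Day 0 replicates 1 and 2, 33 remained higher by the test. Cthrc1, a secreted collagen-triple-helix protein of activated fibroblasts, had 7.02, 9.34, 14.2 and 7.87 CPM in Day 14 EC, against 0.944, 0.215, 0.569 and 0.269 CPM in Day 0 EC, and Col8a2, a short-chain collagen, had 6.64, 6.88, 10.9 and 8.06 CPM in Day 14 EC, against 0.994, 0.386, 0.162 and 0.192 CPM in Day 0 EC. Both were under the 10 CPM of the naming rule, near 0 in the Day 0 libraries and present in all Day 14 libraries (log2 fold change 4.29 ± 0.50, adjusted p = 1.48e-05 for Cthrc1 and log2 fold change 4.26 ± 0.60, adjusted p = 7.62e-05 for Col8a2).

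Fibroblasts are a main source of these proteins, so the FB markers were followed beside them. The 4 FB markers summed to 95 to 146 CPM in Day 14 EC and 74 to 99 CPM in Day 0 EC. Only Pdgfra, the receptor for platelet-derived growth factor A, was called, with 35.7, 56.0, 67.8 and 45.7 CPM in Day 14 EC, against 23.5, 20.9, 32.4 and 23.8 CPM in Day 0 EC (log2 fold change 1.03 ± 0.26, adjusted p = 0.00797), and not without Day 0 replicates 1 and 2 (adjusted p = 0.125). Tcf21, Fap and Ddr2, the other markers, had log2 fold changes of 0.30 ± 0.26, 0.15 ± 0.15 and 0.18 ± 0.17 and were not called. The part of fibroblasts carried over into the EC fraction was not tested, and in bulk RNA more cells of a type and more RNA per cell cannot be told apart.

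Basement membrane genes, which endothelial cells themselves transcribe, moved by less. Of 17 tested, 10 were called higher and none lower, with a median of 0.50. Col18a1, the collagen whose end fragment is endostatin, had 58.7, 63.2, 61.2 and 51.8 CPM in Day 14 EC, against 29.2, 26.2, 27.1 and 25.1 CPM in Day 0 EC (log2 fold change 1.13 ± 0.20, adjusted p = 0.000582). Col15a1, a related collagen of vascular basement membranes, had 240.3, 257, 259.6 and 174 CPM in Day 14 EC, against 108, 89.4, 134 and 113 CPM in Day 0 EC (log2 fold change 1.06 ± 0.22, adjusted p = 0.00202). The Day 14 libraries of both genes lay above all Day 0 libraries. Without Day 0 replicates 1 and 2 the list kept 2 calls, Col18a1 and Col4a5, a chain of type IV collagen (1.13 ± 0.17 with all libraries), and Col15a1 had an adjusted p of 0.0506.

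Enzymes that cut the matrix, and their inhibitors, gave 9 of 18 called higher, none lower and a median of 0.76 (6 higher without Day 0 replicates 1 and 2). Timp1, an inhibitor of metalloproteinases, had 8.26, 12.3, 21.1 and 4.51 CPM in Day 14 EC, against 5.27, 0.730, 1.10 and 0.731 CPM in Day 0 EC (log2 fold change 2.61 ± 0.59, adjusted p = 0.00389). Mmp2, the gelatinase that acts on type IV collagen, had 40.8, 60.5, 83.5 and 57.5 CPM in Day 14 EC, against 15.7, 11.5, 18.2 and 14.2 CPM in Day 0 EC (log2 fold change 2.02 ± 0.27, adjusted p = 4.4e-05). For Timp1, Day 0 replicate 1 lay above Day 14 replicate 4, whereas the groups of Mmp2 did not overlap. Adamts2, which removes the amino-terminal propeptide of fibrillar procollagens, rose by 1.83 ± 0.21.

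Among 23 genes of TGF-beta and BMP signalling, 9 were called higher and none lower (5 and none in the reduced set), with a median of 0.34. Ltbp3, a binding protein of latent TGF-beta, was among them (1.20 ± 0.21). Inhbb, a subunit of activin B and inhibin B, changed by 0.96 ± 0.29 (adjusted p = 0.0878 without Day 0 replicates 1 and 2). In the list of secreted Wnt antagonists 4 of 9 genes were higher and 1 lower (3 and none in the reduced set), with a median of 0.75. Frzb and Sfrp1, relatives of Sfrp2, rose by 3.36 ± 0.42 and 2.04 ± 0.28. Sfrp5, a further member, fell (log2 fold change -2.42 ± 0.70, adjusted p = 0.0156) over all libraries, although its levels were only 0.540, 0.0849, 0.537 and 0.996 CPM in Day 14 EC, against 5.47, 3.22, 0.203 and 2.69 CPM in Day 0 EC, and it had an adjusted p of 0.271 without Day 0 replicates 1 and 2.

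Genes used to recognise endothelial mesenchymal transition gave 7 higher and 1 lower of 19 (5 and 1 in the reduced set), with a median of 0.46. The 3 largest rises in that list were Col1a1, Col3a1 and Fn1, which are also members of the matrix list. Snai1, a transcription factor that represses cadherin genes, had 5.56, 8.41, 6.85 and 4.79 CPM in Day 14 EC, against 3.78, 3.78, 2.52 and 1.69 CPM in Day 0 EC (log2 fold change 1.13 ± 0.25, adjusted p = 0.00293). Among 9 genes of insulin-like growth factor signalling, 3 were higher and none lower, with the same counts in the reduced set. Igf1, the growth factor itself, had 43.3, 60.2, 67.7 and 39.7 CPM in Day 14 EC, against 18.8, 19.4, 28.0 and 22.0 CPM in Day 0 EC (log2 fold change 1.26 ± 0.22, adjusted p = 0.000445), and Igfbp4 and Igfbp3, which bind it, rose by 1.00 ± 0.17 and 0.84 ± 0.17.

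Fn1, the gene of fibronectin (chromosome 1, 71585520 to 71653200, minus strand), was examined by transcript, since alternative exons mark the forms made during repair. As a gene it had 398, 535, 599.7 and 424 CPM in Day 14 EC, against 156, 157, 154 and 162 CPM in Day 0 EC (log2 fold change 1.64 ± 0.21, adjusted p = 3.63e-05). The 4 Day 0 libraries were alike (154 to 162 CPM) and all Day 14 libraries were higher. Of the 5 long coding transcripts tested, only Fn1-201 contains exon 25, the 273-base exon that encodes extra domain B, a form typical of embryonic and remodelling vessels. Fn1 transcripts too low to be tested were not examined for these exons. Fn1-201 and Fn1-214 both contain exon 33, the 270-base exon that encodes extra domain A. The sequences of the 2 exons are shown because they tell the long transcripts apart. Capitals mark the exon and lower case the 10 flanking bases of Fn1-201, on the minus strand of GRCm38.
Fn1 exon 25, chr1:71613763-71614035: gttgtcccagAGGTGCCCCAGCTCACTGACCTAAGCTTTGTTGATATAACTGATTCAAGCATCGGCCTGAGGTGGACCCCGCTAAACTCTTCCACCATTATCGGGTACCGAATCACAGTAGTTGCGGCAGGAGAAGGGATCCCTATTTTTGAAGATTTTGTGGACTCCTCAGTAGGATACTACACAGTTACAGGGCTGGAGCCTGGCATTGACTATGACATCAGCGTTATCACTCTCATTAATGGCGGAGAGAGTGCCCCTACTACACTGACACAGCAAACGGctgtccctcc
Fn1 exon 33, chr1:71603660-71603929: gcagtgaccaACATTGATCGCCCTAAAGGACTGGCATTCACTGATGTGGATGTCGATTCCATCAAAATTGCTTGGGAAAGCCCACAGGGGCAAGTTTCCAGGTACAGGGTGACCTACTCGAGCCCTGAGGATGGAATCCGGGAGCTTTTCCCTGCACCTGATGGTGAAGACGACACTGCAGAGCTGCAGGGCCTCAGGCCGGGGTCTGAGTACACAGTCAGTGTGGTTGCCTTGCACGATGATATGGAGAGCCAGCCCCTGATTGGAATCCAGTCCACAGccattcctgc

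At the level of transcripts 49206 were tested, of which 1884 (3.83%) were called higher and 2582 (5.25%) lower. Fn1-201 had 21.7, 28.6, 28.7 and 16.0 CPM in Day 14 EC, against 0.569, 0.942, 0.918 and 1.94 CPM in Day 0 EC (log2 fold change 4.42 ± 0.46, adjusted p = 3.27e-05). Fn1-214, the transcript with extra domain A alone, had 229, 331, 380.2 and 212 CPM in Day 14 EC, against 96.5, 99.0, 121 and 108 CPM in Day 0 EC (log2 fold change 1.44 ± 0.34, adjusted p = 0.0132). Fn1-214 was not called in the reduced set (adjusted p = 0.196). Of the transcripts with neither exon, Fn1-216 had 44.5, 8.51, 57.5 and 77.6 CPM in Day 14 EC, against 2.38, 0, 2.59 and 0 CPM in Day 0 EC (log2 fold change 5.25 ± 1.49, adjusted p = 0.0331, but adjusted p = 0.241 in the reduced set). Fn1-217 had 22.1, 40.0, 33.2 and 34.2 CPM in Day 14 EC, against 1.76, 0.224, 2.80 and 10.7 CPM in Day 0 EC and was not called (log2 fold change 3.05 ± 1.49, adjusted p = 0.199). Among the TPM of the whole gene Fn1-214 took 20.8 to 28.9% at Day 14 and 20.7 to 41.3% at Day 0. Fn1-201 took 1.57 to 2.29% at Day 14 and 0.121 to 0.477% at Day 0. In CPM, Fn1-201 took 8.67, 7.96, 7.01 and 7.02% of the sum of both in Day 14 EC, against 0.586, 0.943, 0.753 and 1.77% in Day 0 EC. The means were 7.66 ± 0.803% and 1.01 ± 0.524% (SD, n = 4 each), a difference of 6.65 percentage points. An exact two-sided permutation test gave p = 0.0286, the smallest that 4 against 4 libraries allow. The levels of Fn1-201 already did not overlap between the groups, so this p adds little to its call. Of all 5 long coding transcripts, Fn1-216 and Fn1-217 included, Fn1-201 took 6.06 ± 1.09% at Day 14 and 0.958 ± 0.461% at Day 0. Reads were divided among transcripts by Salmon's model, so a transcript level rests on the reads of the exons that differ. A gene on the other strand, Apol7d, overlaps Fn1.

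**Figure D2:**
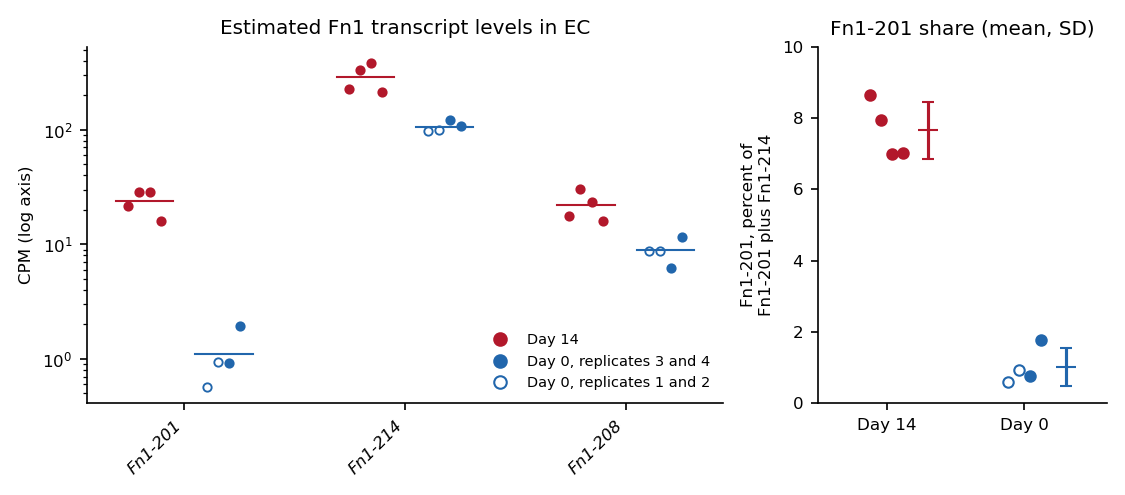
Left, estimated levels (CPM, log axis) of Fn1-201, Fn1-214 and Fn1-208 in each of the 4 Day 14 and 4 Day 0 EC libraries, 1 point per library. Right, the share of Fn1-201 in the sum of Fn1-201 and Fn1-214 (percent), with the mean and SD of each group: 7.66% at Day 14 and 1.01% at Day 0, with no overlap.

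Complement genes gave 8 of 9 called higher, 1 lower and a median of 0.97. Cfb, the protease of the alternative pathway, had 13, 21.1, 42.1 and 8.87 CPM in Day 14 EC, against 1.84, 2.58, 2.92 and 2.19 CPM in Day 0 EC (log2 fold change 3.15 ± 0.49, adjusted p = 0.000199). Day 14 replicate 3 was the highest and replicate 4 the lowest of its group, and both exceeded all Day 0 libraries. C4b, a component of the classical pathway, had 32.5, 37.6, 52.5 and 64.7 CPM in Day 14 EC, against 9.44, 8.20, 8.41 and 10.2 CPM in Day 0 EC (log2 fold change 2.37 ± 0.31, adjusted p = 4.75e-05). C3, on which all pathways converge, had 338, 602, 973 and 361 CPM in Day 14 EC, against 155, 228, 138 and 201 CPM in Day 0 EC (log2 fold change 1.66 ± 0.36, adjusted p = 0.00259). Without Day 0 replicates 1 and 2, 5 of the list were higher and none lower.

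Cytokines and chemokines gave 10 genes higher and 1 lower of 19, with a median of 1.03. Il6, the interleukin that drives the acute-phase response, had 13.6, 15.2, 13.4 and 12.7 CPM in Day 14 EC, against 3.08, 2.75, 3.13 and 3.69 CPM in Day 0 EC (log2 fold change 2.12 ± 0.26, adjusted p = 2.33e-05). Cxcl10, a chemokine for activated T cells, had 10.5, 13, 7.79 and 8.16 CPM in Day 14 EC, against 2.14, 2.32, 3.66 and 3.73 CPM in Day 0 EC (log2 fold change 1.73 ± 0.21, adjusted p = 1.71e-05). In both genes the Day 14 and Day 0 libraries were separate. Cxcl2 and Ccl7, chemokines for neutrophils and monocytes, had changes of 1.69 ± 0.41 and 1.54 ± 0.46 but were not called without Day 0 replicates 1 and 2 (adjusted p = 0.0563 and 0.111), when 3 genes of the list stayed higher by the test: Il6, Cxcl10 and Ccl21a.

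Many of these genes are known targets of NF-kB, so their promoters were read from RefSeq (GRCm38.p6), taking the 250 bases before each gene's start. Of the 10 cytokine genes called higher, 7 had an entry, and 5 of these genes held the NF-kB consensus of 10 bases on either strand: Cxcl1, Cxcl10, Cxcl2, Il6 and Lif. The consensus was present in 7.25% of all 32851 windows, counted by window. It was in none of the 5 leukocyte adhesion genes called higher that had an entry, counted by gene. Cytokine genes that were not called were not counted, so the share cannot be tied to the Day 14 change. Only this pattern in these 250 bases was searched, so a gene without a match may hold other sites. Matches of one window may overlap each other. The count is a description of sequence and says nothing of binding. Cxcl1, a neutrophil chemokine, and Lif, a cytokine of the interleukin-6 family, are named because they hold the motif, a choice made after their values were seen. The windows of the 2 genes that were called with and without Day 0 replicates 1 and 2 are shown, with the matches in capitals.
Il6, chr5:30012864-30013113, plus strand: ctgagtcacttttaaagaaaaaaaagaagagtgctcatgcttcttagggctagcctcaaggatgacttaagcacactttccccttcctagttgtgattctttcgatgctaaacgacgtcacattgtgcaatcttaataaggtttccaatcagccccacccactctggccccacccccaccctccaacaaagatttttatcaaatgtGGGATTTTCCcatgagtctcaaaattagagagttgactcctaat
Cxcl10, chr5:92348890-92349139, minus strand: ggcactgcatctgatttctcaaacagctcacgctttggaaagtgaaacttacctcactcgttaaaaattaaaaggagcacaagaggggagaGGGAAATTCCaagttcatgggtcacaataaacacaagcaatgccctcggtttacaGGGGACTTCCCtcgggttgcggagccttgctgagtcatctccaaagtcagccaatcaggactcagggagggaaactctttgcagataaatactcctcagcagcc

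The adhesion molecules that let leukocytes roll and stop on endothelium gave 6 of 14 higher and none lower (4 higher without Day 0 replicates 1 and 2), with a median of 0.12. Sele, the gene of E-selectin, which endothelial cells make on activation, had 16.2, 14.3, 13.8 and 13.2 CPM in Day 14 EC, against 2.54, 1.12, 3.74 and 4.50 CPM in Day 0 EC (log2 fold change 2.26 ± 0.36, adjusted p = 0.000259). Selp, the gene of P-selectin, which is stored in Weibel-Palade bodies, had 16.4, 14.5, 12.7 and 14.4 CPM in Day 14 EC, against 8.40, 0.859, 1.91 and 1.62 CPM in Day 0 EC (log2 fold change 2.22 ± 0.50, adjusted p = 0.00371). Its Day 0 replicate 1 stood above the other Day 0 libraries but below all Day 14 libraries, and without Day 0 replicates 1 and 2 the change was 3.04 (adjusted p = 0.00189). Icam1 and Vcam1, ligands of leukocyte integrins, changed by 1.01 ± 0.26 and 0.86 ± 0.17, with adjusted p of 0.133 and 0.0422 without these 2 libraries.

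Interferon-response genes did not join this pattern, with 1 of 30 higher (Cxcl10), 4 lower (1 and 3 in the reduced set) and a median of -0.16. Among all genes 12.8% were higher and 14.3% lower, so the share of lower calls was near that of all genes. Ifit1 and Gbp7, which are induced by interferon, fell, with log2 fold changes of -0.57 ± 0.13 and -0.49 ± 0.15, and Gbp7 had an adjusted p of 0.0644, 0.0609 and 0.0732 without Day 0 replicate 3, Day 14 replicate 3 and Day 14 replicate 4. Of 10 genes of MHC class I presentation 1 was higher and 1 lower (none in the reduced set). Of 7 genes of class II 1 was higher, with or without these 2 Day 0 libraries: Cd74, the invariant chain, with 5.36, 6.11, 6.18 and 6.02 CPM in Day 14 EC, against 4.08, 2.92, 2.56 and 2.27 CPM in Day 0 EC (log2 fold change 1.00 ± 0.30, adjusted p = 0.0178). The MHC calls are too few to be set apart from the shares among all genes.

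Genes that mark kinds of vessel were counted by list, beside the 12.8% higher and 14.3% lower among all genes. Lymphatic endothelial genes gave 6 of 7 higher and none lower, with a median of 1.03 (4 higher without Day 0 replicates 1 and 2). The member not called was Prox1, a transcription factor, with a log2 fold change of -0.00038. Mmrn1, a multimerin of lymphatic endothelium, had 53.2, 53.1, 49.1 and 51.3 CPM in Day 14 EC, against 16.3, 16.7, 20.6 and 19.7 CPM in Day 0 EC (log2 fold change 1.50 ± 0.15, adjusted p = 1.79e-06). Reln, a secreted protein of lymphatic vessels, had 25.5, 22.6, 24.9 and 25.7 CPM in Day 14 EC, against 10.4, 7.51, 11.2 and 9.70 CPM in Day 0 EC (log2 fold change 1.34 ± 0.18, adjusted p = 3.86e-05). The libraries of each group lay close together in both, with no overlap. Ccl21a, the chemokine that guides dendritic cells into lymphatics, had 48.7, 59.1, 57.3 and 30.8 CPM in Day 14 EC, against 29.1, 23.1, 31.0 and 12.9 CPM in Day 0 EC (log2 fold change 1.03 ± 0.26, adjusted p = 0.00659), with some overlap between groups, and belongs to a family of near-identical copies among which reads can be split.

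Venous genes gave 3 higher and 1 lower of 6 (2 and none in the reduced set) with a median of 0.48. Ackr1, Vwf and Vcam1 were the higher genes, and Nr2f2 was the lower one. Ackr1, the atypical chemokine receptor of venules, had 1.54, 1.06, 1.39 and 1.28 CPM in Day 14 EC, against 0.646, 0.0859, 0.447 and 0.0770 CPM in Day 0 EC (log2 fold change 2.09 ± 0.47, adjusted p = 0.00334). On log2(TPM + 1) values with centred libraries Ackr1 had 0.34 and was not called (limma, adjusted p = 0.369). Vwf, the clotting factor carrier von Willebrand factor, changed by 0.70 ± 0.16 (adjusted p = 0.0859 without Day 0 replicates 1 and 2). Of 12 arterial genes 1 was higher (1 in the reduced set), Fbln5, an elastic-fibre protein (0.87 ± 0.17), and of 9 capillary genes none was higher and 2 were lower (none and 1 in the reduced set), with a median of -0.35. The 2 were Meox2 and Tcf15, transcription factors of heart capillaries that act as a pair on fatty acid transport, at -0.40 ± 0.14 and -0.76 ± 0.25. Meox2 had an adjusted p of 0.107, 0.0665 and 0.12 without Day 0 replicate 3, Day 14 replicate 3 and Day 14 replicate 4, and Tcf15 one of 0.0957 without Day 0 replicates 1 and 2. Endocardial genes gave 3 of 6 higher (1 in the reduced set), led by Smoc1, a matrix glycoprotein, at 1.36 ± 0.22. At 1 or 2 genes, the arterial and capillary calls are too few to be set apart from the 12.8% higher and 14.3% lower among all genes.

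Of 23 genes of the general endothelial program 4 were higher and 2 lower (1 and 2 in the reduced set), with a median of 0.01. Among all genes 12.8% were higher and 14.3% lower. Eng, a TGF-beta co-receptor, and Cd34, a sialomucin of capillaries, were higher by 0.43 ± 0.13 and 0.55 ± 0.11 (Eng with an adjusted p of 0.269 without Day 0 replicates 1 and 2), and Fli1, an ETS transcription factor, was lower (-0.33 ± 0.09). Kdr, the main receptor for VEGF-A, had 1396, 1404, 1372 and 987 CPM in Day 14 EC, against 1300.4, 1122, 1744 and 1537 CPM in Day 0 EC and was not called (log2 fold change -0.14 ± 0.13, adjusted p = 0.403). Flt1, the receptor that also acts as a decoy for VEGF-A, had 779, 776, 782 and 1065 CPM in Day 14 EC, against 966, 1042, 1124 and 1044 CPM in Day 0 EC (log2 fold change -0.30 ± 0.11, adjusted p = 0.0431). In both genes Day 14 replicate 4 stood apart, low for Kdr and high for Flt1, so the groups overlapped. For Flt1 the adjusted p was 0.11 without Day 0 replicates 1 and 2. On log2(TPM + 1) values the sign turned for both Flt1 (0.76) and Fli1 (0.74), and it stayed above 0 with centred libraries (0.22 and 0.20).

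By transcript, full-length Flt1-202 had 484, 509.5, 497 and 591 CPM in Day 14 EC, against 587, 593, 743 and 663 CPM in Day 0 EC (log2 fold change -0.31 ± 0.09, adjusted p = 0.0384), with an adjusted p of 0.0578 without Day 0 replicates 1 and 2. The shorter coding transcript Flt1-203, of the size of the secreted form, had 215, 210.5, 218 and 365 CPM in Day 14 EC, against 319, 399.5, 357 and 328 CPM in Day 0 EC and was not called (log2 fold change -0.48 ± 0.16, adjusted p = 0.0635). Over vascular growth factors and their receptors 3 of 15 genes were higher and 3 lower (2 and 1 in the reduced set), with a median of 0.04. Beside them stand the 12.8% higher and 14.3% lower among all genes. Vegfd, a ligand of the lymphatic receptor Flt4, had 2.62, 4.20, 3.94 and 3.37 CPM in Day 14 EC, against 0.994, 1.16, 1.95 and 1.00 CPM in Day 0 EC (log2 fold change 1.46 ± 0.28, adjusted p = 0.000939). Vegfb, which acts on endothelial uptake of fatty acids, had 12.5, 11.8, 12.6 and 12.3 CPM in Day 14 EC, against 29.7, 34, 19.5 and 21.3 CPM in Day 0 EC (log2 fold change -1.09 ± 0.23, adjusted p = 0.00204), and its adjusted p was 0.08 without Day 0 replicates 1 and 2.

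Plvap, the protein of the diaphragms of fenestrated and sprouting endothelium, had 39.4, 60.0, 53.8 and 44.6 CPM in Day 14 EC, against 18, 20.8, 15.8 and 15.9 CPM in Day 0 EC (log2 fold change 1.49 ± 0.20, adjusted p = 4.16e-05), with the groups apart. It led a list of 14 tip cell and angiopoietin genes of which 3 were higher and none lower (2 and none in the reduced set). Esm1, a proteoglycan of tip cells, changed by 0.64 ± 0.22 (adjusted p = 0.367 without Day 0 replicates 1 and 2). Notch2 and Notch1, receptors that restrain sprouting, were higher by 0.74 ± 0.17 and 0.54 ± 0.20 (Notch1 with an adjusted p of 0.726 without these 2 libraries), and 3 of 16 genes of that pathway were called, all higher (1 in the reduced set). Among all genes 12.8% were higher and 14.3% lower. At 3 genes each, the tip cell and Notch calls are too few to be set apart from these shares. Of 13 flow-response genes 5 were higher and 2 lower (2 and none in the reduced set). Klf4, a transcription factor kept up by laminar flow, had 172, 190.1, 178 and 221 CPM in Day 14 EC, against 310.3, 367, 325 and 251 CPM in Day 0 EC (log2 fold change -0.72 ± 0.16, adjusted p = 0.00341), and was not called without replicates 1 and 2 (adjusted p = 0.0657). On log2(TPM + 1) values Klf4 had 0.58, or 0.039 with centred libraries, so its direction depended on the unit.

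Ptgis, the synthase of prostacyclin, a lipid that widens vessels, was higher by 1.31 ± 0.24. Edn1, the precursor of the constrictor endothelin 1, and Piezo1, a channel opened by stretch, changed by 0.68 ± 0.18 and 0.80 ± 0.18, with adjusted p of 0.0894 and 0.0737 without Day 0 replicates 1 and 2. Of 12 coagulation genes 4 were higher and none lower (3 and none in the reduced set), among them F8, the clotting factor VIII made by endothelium (0.60 ± 0.16). Junction genes gave 2 higher and 2 lower of 16 (1 and none in the reduced set), near the 12.8% higher and 14.3% lower among all genes.

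Rac1 and Cdc42, GTPases that set cell shape and migration, were higher by small amounts. Rac1, which drives lamellipodia, had 305, 309.8, 299 and 319 CPM in Day 14 EC, against 242, 236, 266 and 269 CPM in Day 0 EC (log2 fold change 0.28 ± 0.07, adjusted p = 0.00433), and Cdc42, which drives filopodia, had 333, 337, 315 and 288 CPM in Day 14 EC, against 241, 238, 282 and 285 CPM in Day 0 EC (log2 fold change 0.28 ± 0.08, adjusted p = 0.00902). The Day 14 libraries lay above all Day 0 libraries in both. The adjusted p was 0.103 for Rac1 and 0.189 for Cdc42 without Day 0 replicates 1 and 2.

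**Figure D3:**
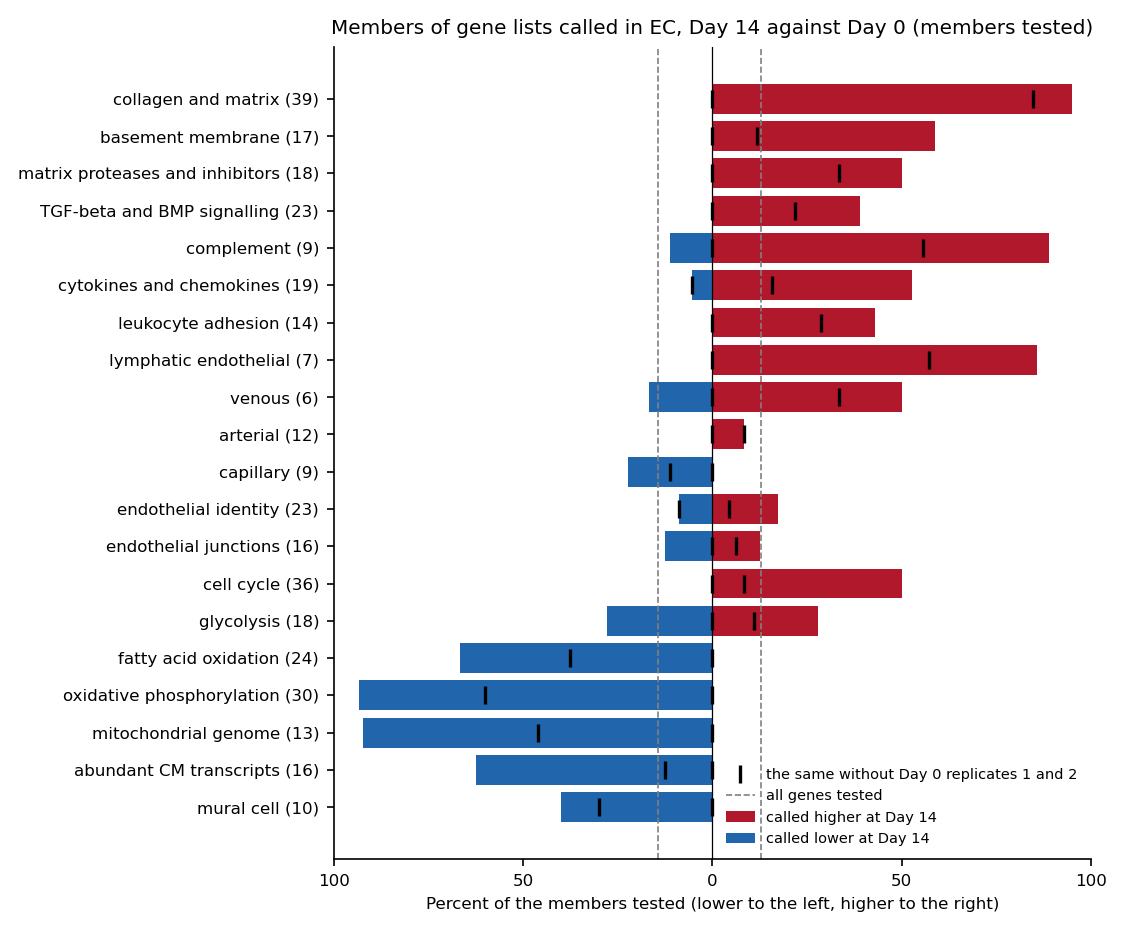
Percent of the tested members of each gene list that were called lower (bars to the left) or higher (bars to the right) at Day 14 against Day 0, with the number of members tested in parentheses. Short black ticks give the same percent without Day 0 replicates 1 and 2. The dashed lines mark the 12.8% higher and 14.3% lower among all genes tested. Matrix, complement and lymphatic lists lie far to the right, and oxidative phosphorylation and the mitochondrial genome far to the left.

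Among lists of energy metabolism, oxidative phosphorylation had 28 of 30 genes lower and none higher, with a median of -0.83 (18 lower without Day 0 replicates 1 and 2). Cox7a1, the heart and muscle form of a cytochrome oxidase subunit, had 22.7, 24.2, 24.6 and 17.0 CPM in Day 14 EC, against 116, 135, 78.3 and 74.3 CPM in Day 0 EC (log2 fold change -2.19 ± 0.33, adjusted p = 0.000147). Atp5k, a subunit of ATP synthase, had 45.1, 40.9, 38.6 and 30.5 CPM in Day 14 EC, against 192, 198, 123 and 81.7 CPM in Day 0 EC (log2 fold change -1.94 ± 0.32, adjusted p = 0.000384). In both genes Day 0 replicates 1 and 2 were higher than replicates 3 and 4, and the Day 14 libraries lay below all of them. Uqcrq and Ndufb10, subunits of complexes III and I, were lower at -1.36 ± 0.25 and -1.35 ± 0.24.

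The mitochondrial genome itself had 12 of 13 protein genes lower, with a median of -0.98 and 6 lower without Day 0 replicates 1 and 2. The mRNAs of that genome took 12.1 to 14.6% of the reads of Day 14 libraries and 17.4 to 23.9% of those of Day 0 libraries. mt-Atp8, mt-Nd2 and mt-Nd4, which encode subunits of ATP synthase and complex I, were lower at -1.36 ± 0.25, -1.30 ± 0.24 and -1.24 ± 0.21. Fatty acid oxidation had 16 of 24 genes lower, none higher and a median of -0.75 (9 lower without Day 0 replicates 1 and 2). Etfb, a subunit of the flavoprotein that takes electrons from fatty acyl dehydrogenases, had 32.7, 29.8, 28.6 and 26.1 CPM in Day 14 EC, against 106, 122, 73.9 and 57.3 CPM in Day 0 EC (log2 fold change -1.62 ± 0.22, adjusted p = 6.68e-05), and Acadm, a medium-chain dehydrogenase, was lower (-1.19 ± 0.19).

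Transcripts of cardiomyocytes were followed beside them. The 4 CM markers summed to 865 to 1297 CPM in Day 14 EC and 1431 to 2467 CPM in Day 0 EC, and 2 of them, Tnni3 and Tnnt2, were lower (in the reduced set too). The other markers were not called, with 0.72 ± 0.50 for Nppb, the gene of B-type natriuretic peptide (adjusted p = 0.297), and -0.54 ± 0.32 for Actc1, cardiac actin (adjusted p = 0.206). Of 16 abundant CM transcripts 10 were lower and none higher, with a median of -0.92 and a summed level of 8626 to 10726 CPM in Day 14 EC and 12247 to 19276 CPM in Day 0 EC. Tnni3, cardiac troponin I, had 139, 136, 126 and 114 CPM in Day 14 EC, against 451, 515, 279 and 365 CPM in Day 0 EC (log2 fold change -1.64 ± 0.29, adjusted p = 0.000562). Tcap, a sarcomere protein that caps titin, had 27.1, 19.1, 17.9 and 19.0 CPM in Day 14 EC, against 133, 165, 58.1 and 50.5 CPM in Day 0 EC (log2 fold change -2.29 ± 0.41, adjusted p = 0.000658). Nexn, Trdn and Ckm, a filamin-binding protein of the Z disc, a protein of calcium release and muscle creatine kinase, were lower at -2.05 ± 0.25, -1.80 ± 0.28 and -1.66 ± 0.30. Without Day 0 replicates 1 and 2 the list kept 2 lower genes. The part that carried-over cardiomyocyte RNA has in the values for energy metabolism was not tested.

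Rpl3l, a ribosomal protein of striated muscle, and Gpr22, a receptor of heart muscle, were also among the 12 lowest, at -2.16 ± 0.33 and -1.67 ± 0.35. Chchd10, a mitochondrial protein (-1.82 ± 0.31), and Cdk15, a little-studied kinase (-1.67 ± 0.38), completed them with the 2 genes that fell furthest. Timm22, an import channel of the inner mitochondrial membrane (chromosome 11, 76406952 to 76416292, plus strand), had 58.3, 60.5, 49.3 and 41.9 CPM in Day 14 EC, against 694, 581, 525 and 168 CPM in Day 0 EC (log2 fold change -3.23 ± 0.50, adjusted p = 0.00021). Bc1, a short noncoding RNA made by RNA polymerase III (chromosome 7, 144914470 to 144914637, plus strand), had 62.5, 66.4, 53.2 and 41.4 CPM in Day 14 EC, against 500.2, 447, 424 and 148 CPM in Day 0 EC (log2 fold change -2.76 ± 0.51, adjusted p = 0.000857). In both, Day 0 replicate 4 was far below the other Day 0 libraries, and the same library had 0.696% of its reads in nuclear rRNA genes against 3.97 to 5.47% in Day 0 replicates 1 to 3 and 0.526 to 1.74% in Day 14 EC. What that share has to do with the 2 genes was not tested.

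Myh7, the fetal heavy chain of cardiac myosin, went the other way, with 41.2, 47.3, 30.5 and 20.8 CPM in Day 14 EC, against 18.2, 23.7, 12.9 and 9.20 CPM in Day 0 EC (log2 fold change 1.13 ± 0.30, adjusted p = 0.00996) and some overlap, at a locus that also holds the antisense transcript Mhrt. Glycolysis gave 5 genes higher and 5 lower of 18 (2 and none in the reduced set) and a median of 0.01. Eno1, an enolase, had 34.3, 32.1, 34.6 and 34 CPM in Day 14 EC, against 8.25, 9.23, 11.3 and 19.2 CPM in Day 0 EC (log2 fold change 1.48 ± 0.31, adjusted p = 0.00186), and Gapdh, the dehydrogenase of the same pathway, had 71.2, 78.2, 60.7 and 42.3 CPM in Day 14 EC, against 193, 176, 135 and 105 CPM in Day 0 EC (log2 fold change -1.27 ± 0.26, adjusted p = 0.0017). Both genes have near-identical copies in the genome that can share reads, and had adjusted p of 0.0644 and 0.0534 without Day 0 replicates 1 and 2. On log2(TPM + 1) values Gapdh had 0.52, or -0.024 with centred libraries. Slc2a1, the glucose transporter of endothelium, was higher by 0.60 ± 0.16, and Hk2, a hexokinase, had -0.78 ± 0.22. Hk2 had an adjusted p of 0.148 in the reduced set and a log2 fold change of 0.27 on log2(TPM + 1) values. Among hypoxia genes 2 of 16 were higher and 5 lower (2 and 1 in the reduced set), with Hif1a, the oxygen-regulated transcription factor, at 0.66 ± 0.11 and Egln1, the prolyl hydroxylase that restrains it, at -0.52 ± 0.10.

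Fatty acid uptake by endothelium gave 1 higher and 4 lower of 12 genes (none and 1 in the reduced set), beside 12.8% higher and 14.3% lower among all genes. Fabp4, the fatty acid binding protein of capillaries, had 1669.5, 1943, 1471 and 1823 CPM in Day 14 EC, against 3114, 2658, 3001 and 2223 CPM in Day 0 EC (log2 fold change -0.67 ± 0.19, adjusted p = 0.0116), with an adjusted p of 0.102 without Day 0 replicates 1 and 2. Its direction also depended on the unit, since Fabp4 had 1.17 on log2(TPM + 1) values and 0.62 with centred libraries. Ribosomal protein genes gave 13 lower and 1 higher of 36 and a median of -0.39, but none lower and 1 higher without these 2 libraries. The higher gene was Rps2, which has near-identical copies in the genome that can share its reads, with 78.0, 77.1, 81.6 and 67.0 CPM in Day 14 EC, against 38.9, 40.2, 39.4 and 50.5 CPM in Day 0 EC (log2 fold change 0.84 ± 0.13, adjusted p = 0.00011). Rps27 and Rpl5, other proteins of the ribosome, had -1.19 ± 0.28 and -0.93 ± 0.22.

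Cell cycle genes gave 18 of 36 higher and none lower with a median of 0.75, and 3 of the list higher without Day 0 replicates 1 and 2. Ccne1, the cyclin that starts DNA replication, rose by 1.64 ± 0.42. It had an adjusted p of 0.0663 in a fit of the 8 libraries alone and a log2 fold change of -0.36 on centred TPM values. Cdk1, the kinase of mitosis, had 14.1, 12.6, 8.91 and 3.56 CPM in Day 14 EC, against 3.33, 2.32, 5.77 and 2.89 CPM in Day 0 EC (log2 fold change 1.45 ± 0.35, adjusted p = 0.00505). Its groups overlapped, Day 14 replicates 1 and 2 being the highest and replicate 4 among the Day 0 values, and its adjusted p was 0.0945 without replicates 1 and 2. Bub1 and Aurkb, kinases of chromosome segregation, changed by 1.64 ± 0.43 and 1.37 ± 0.39 with adjusted p of 0.125 and 0.0826 in that setting. Replication-dependent histones, whose mRNAs lack a poly(A) tail and are kept by a total RNA method, gave 9 higher and 1 lower of 20 (3 and none in the reduced set) with a median of 0.74. Hist1h3e, a copy of histone H3, was higher with and without the 2 libraries (1.47 ± 0.29 with all), and its near-identical copies Hist1h3a, Hist1h3b and Hist1h3c, which can share reads with it, had 1.61 ± 0.35, 2.36 ± 0.75 and 1.75 ± 0.53, with adjusted p of 0.0552, 0.201 and 0.142 without them.

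Genes induced by stress or by dissociation of tissue gave 5 higher and 2 lower of 24 (3 and none in the reduced set), with Egr2 and Myc, transcription factors of the immediate response, higher by 1.83 ± 0.34 and 1.31 ± 0.23. The unfolded protein response gave 2 higher and 1 lower of 20, and the circadian clock 1 higher and 1 lower of 16 (none of either list in the reduced set). These shares lie at or under the 12.8% higher and 14.3% lower among all genes, apart from the 5 of 24 genes.

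Markers of other cells were followed through the same libraries. Resident macrophage genes gave 6 of 10 higher and none lower (3 and none in the reduced set), with a median of 1.48, although their sum was only 18.9 to 40.7 CPM in Day 14 EC and 10.8 to 18.3 CPM in Day 0 EC. Adgre1, the gene of F4/80, had 0.498, 0.552, 0.761 and 2.28 CPM in Day 14 EC, against 0.249, 0.129, 0 and 0 CPM in Day 0 EC (log2 fold change 3.45 ± 0.85, adjusted p = 0.00558). Monocyte genes gave 2 of 5 higher (1 in the reduced set) and summed to 14.5 to 34.9 CPM in Day 14 EC and 6.74 to 9.93 CPM in Day 0 EC. Mesothelial genes of the outer heart surface gave 5 of 8 higher (4 in the reduced set) with a median of 0.98 and sums of 269 to 497 CPM in Day 14 EC and 119 to 252 CPM in Day 0 EC, led by Muc16 and Upk1b, surface proteins of mesothelium, at 1.54 ± 0.38 and 1.53 ± 0.40.

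Mural cell genes, of pericytes and smooth muscle, gave 4 of 10 lower and none higher (3 and none in the reduced set) and summed to 1959.8 to 2617 CPM in Day 14 EC and 3108 to 3700.3 CPM in Day 0 EC. Rgs5, a regulator of G protein signalling in pericytes, had 1495, 1206, 1225 and 1592 CPM in Day 14 EC, against 2037, 2209.5, 2541 and 2138 CPM in Day 0 EC (log2 fold change -0.69 ± 0.15, adjusted p = 0.00217). Kcnj8 and Abcc9, which form a potassium channel of pericytes, were lower at -0.88 ± 0.20 and -0.66 ± 0.14, and all 3 were called without Day 0 replicates 1 and 2. Their signs turned on log2(TPM + 1) values (0.37 for Rgs5, 0.054 for Kcnj8 and 0.39 for Abcc9) and were negative again with centred libraries (-0.17, -0.49 and -0.16). Of the genes of neutrophils (4), T and NK cells (4), B cells (6) and red cells (7) none was called with all libraries. The red cell genes varied widely between libraries, with sums of 513 to 8613 CPM in Day 14 EC and 842 to 3443 CPM in Day 0 EC. In the reduced set Ms4a1, a surface protein of B cells, was higher (adjusted p = 0.0297).

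The place of Day 14 in the course was read from EC of the other days. Col1a1 averaged 41.4 CPM at Day 0, 107 at Day 1, 1116 at Day 3, 1929.8 ± 561 at Day 7, 445 ± 138 at Day 14 and 271 ± 111 at Day 28 (SD, n = 4). Tnc averaged 4.19, 48.0, 299, 148, 35.3 and 18.7 CPM on the same days, with its highest mean at Day 3. Comp averaged 3.29, 2.24, 2.27, 14.4, 34.3 and 39.9 CPM, so that its means were still higher at Day 14 and Day 28 than at Day 7.

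Sfrp2, the gene with the largest change at Day 14, averaged 1.88, 2.52, 19.9, 73.8 ± 24.7, 55.4 ± 14.8 and 46.6 ± 22.8 CPM, and it was called neither between Day 14 and Day 7 (-0.41 ± 0.33, adjusted p = 0.703) nor between Day 28 and Day 14 (-0.25 ± 0.33, adjusted p = 0.767). Cfb averaged 2.38, 7.54, 16.4, 25.5, 21.3 and 17.3 CPM. These are descriptions of the order of means, and only the 2 comparisons that follow were tested.

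**Figure D4:**
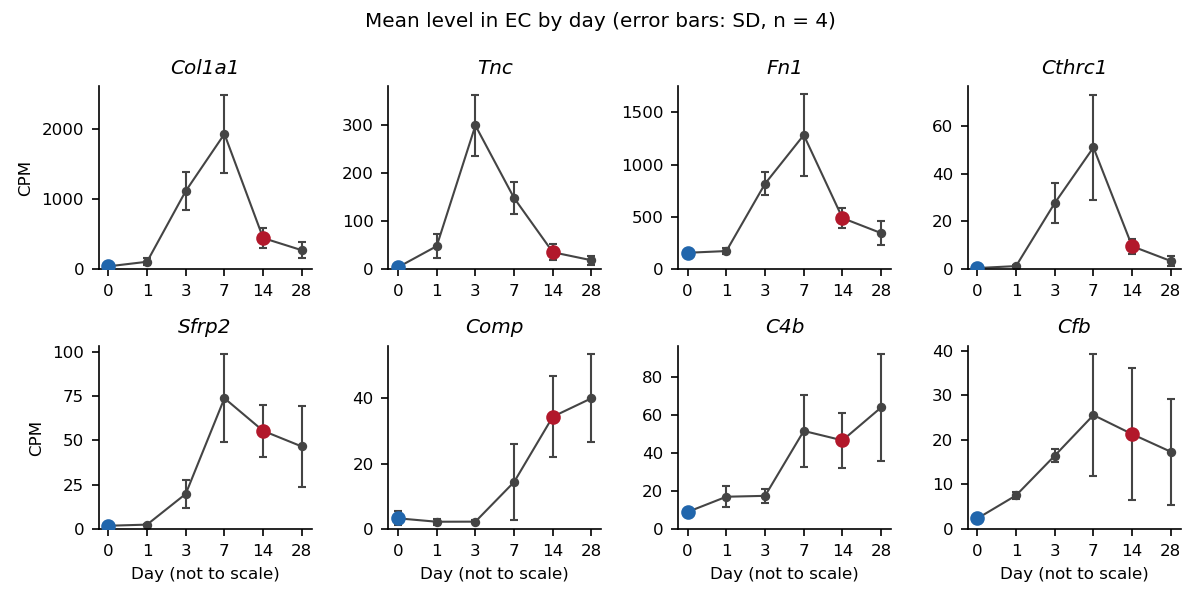
Mean level (CPM) of selected genes in EC at Day 0, Day 1, Day 3, Day 7, Day 14 and Day 28 (days evenly spaced, not to scale), with error bars showing the SD over 4 libraries. Each panel has its own axis from 0. Col1a1 is highest at Day 7 and Tnc at Day 3, whereas the mean of Comp is still higher at Day 14 (34.3 CPM) than at Day 7 (14.4 CPM).

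The Day 14 libraries are shared by the main comparison and the 2 given next. Against Day 7, Day 14 had 46 genes higher (0.253% of 18151) and 371 lower (2.04%). Of the 39 matrix genes 24 were lower at Day 14 than at Day 7 and none was higher. Of the 4 FB markers 3 were also lower at Day 14 than at Day 7. The part of carried-over fibroblasts in these differences was not tested. Cthrc1 had the lowest value (-2.40 ± 0.39, adjusted p = 0.00234), followed by Col1a1 (-2.12 ± 0.33, adjusted p = 0.00198), Tnc (-2.06 ± 0.37, adjusted p = 0.00444) and Tnfaip6, a hyaluronan-binding protein induced by inflammation (-1.91 ± 0.33, adjusted p = 0.00329). Endothelial mesenchymal transition genes gave 8 lower of 19, matrix proteases 7 of 18, cytokines 5 of 19 and lymphatic genes 4 of 7, and complement and oxidative phosphorylation gave none. The 4 highest genes by the naming rule differed by little: Spaca6 (0.57 ± 0.10, adjusted p = 0.00316), Lims2 (0.56 ± 0.14, adjusted p = 0.037), Crispld1 (0.56 ± 0.14, adjusted p = 0.0332) and Cabp1 (0.53 ± 0.14, adjusted p = 0.0401). Without Day 14 replicate 1, 9 genes were higher and 120 lower, and Lims2, Crispld1 and Cabp1 were not called (adjusted p = 0.0744, 0.127 and 0.113), nor were they without Day 14 replicate 4 (0.187, 0.132 and 0.0972).

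Day 28 against Day 14 had 42 genes higher (0.231%) and 136 lower (0.749%), a contrast in which Day 14 is the baseline. C7, a terminal component of complement, was the highest (1.74 ± 0.35, adjusted p = 0.0249), followed by Gsn, the actin-severing protein gelsolin (1.33 ± 0.28, adjusted p = 0.0317), Dpep1, a dipeptidase (1.27 ± 0.30, adjusted p = 0.0463), and Smoc2, a matrix glycoprotein (1.18 ± 0.26, adjusted p = 0.0376). The lowest were genes of stressed cardiomyocytes, Myh7 (-2.43 ± 0.32, adjusted p = 0.00213), Nppb (-2.22 ± 0.53, adjusted p = 0.0494), Ankrd1, a stretch-induced ankyrin protein (-1.98 ± 0.36, adjusted p = 0.017), and Tuba4a, a tubulin (-1.55 ± 0.30, adjusted p = 0.024). All 4 CM markers, 5 of 16 abundant CM transcripts and 8 of 30 oxidative phosphorylation genes were lower at Day 28. Without Day 14 replicate 1 no gene was called higher by edgeR and 10 were called lower, against 1202 genes higher at an unadjusted p under 0.05. Of the genes named here Myh7 alone kept its call without that library, and likewise without Day 28 replicate 1, when 5 genes were higher and 13 lower. Day 28 replicate 3 was also taken to carry opposite-strand reads, though their amount is not given here. Unlike in the main comparison, naming did not require a call without the affected library. Without Day 28 replicate 3, 14 genes were higher and 14 lower. Gsn, Dpep1, Smoc2, Nppb, Ankrd1 and Tuba4a were then not called (adjusted p = 0.0557, 0.0771, 0.0557, 0.146, 0.0532 and 0.104).

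Whether these changes were particular to EC was tested as an interaction, the Day 14 change in EC against the mean change in CM, FB and HC, over the 32 libraries of these days. Per the methods the cell types of a day were taken from the same animals, whereas this fit took the libraries as independent. Of 19489 genes, 796 (4.08%) had a change in EC above that mean and 1243 (6.38%) below it. The numbers were 98 and 234 without EC Day 0 replicates 1 and 2. With the replicate number of each day as a block, an alternative added after the data were seen, 692 genes were above and 1032 below. In the same fit 25.9% of genes were called between Day 14 and Day 0 in EC, 17.7% in CM, 17.5% in FB and 17.5% in HC. FB and HC tables were quantified by gene and EC and CM tables by transcript, so the change was taken within each cell type.

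Among genes that rose more in EC, Rps2 had the largest difference (1.21 ± 0.22, adjusted p = 0.00108), with changes of 0.86 in EC, -1.16 in CM, -0.22 in FB and 0.32 in HC. Adcy7, an adenylyl cyclase, had a difference of 1.07 ± 0.21, adjusted p = 0.00255, and changes of 1.98 in EC, 2.09 in CM, 0.55 in FB and 0.10 in HC, so that CM moved as far as EC. Pi15, a secreted protease inhibitor, and Ptprd, a receptor phosphatase, differed as well (1.01 ± 0.20, adjusted p = 0.00192 for Pi15 and 0.91 ± 0.19, adjusted p = 0.00389 for Ptprd). Zfp521, a zinc finger protein, and Svep1, a matrix protein needed for lymphatic vessels, differed too (0.86 ± 0.14, adjusted p = 0.000538 for Zfp521 and 0.82 ± 0.17, adjusted p = 0.00336 for Svep1).

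At the other end stood Bc1 (-3.42 ± 0.60, adjusted p = 0.00114), with changes of -2.75 in EC, -0.01 in CM, 1.65 in FB and 0.36 in HC, and Timm22 (-3.33 ± 0.54, adjusted p = 0.000538), with changes of -3.21 in EC, -0.11 in CM, 1.15 in FB and -0.69 in HC. Upk1b, the mesothelial gene, had a lower change in EC (-2.85 ± 0.53, adjusted p = 0.00172) although it rose in EC, since its changes were 1.55 in EC, 4.16 in CM, 6.79 in FB and 2.24 in HC. Fn1 rose less in EC than elsewhere (-1.60 ± 0.30, adjusted p = 0.00138), with changes of 1.65 in EC, 2.71 in CM, 3.16 in FB and 3.86 in HC. Cdk15 and Stap1, a signalling adaptor of blood cells, were the other genes at this end (-1.63 ± 0.28, adjusted p = 0.00065 for Cdk15 and -1.54 ± 0.27, adjusted p = 0.000774 for Stap1).

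By list, 7 of 17 basement membrane genes had a change in EC above the mean of the other types and none below, and 7 of 8 mesothelial genes had one below. These list counts were made with all libraries only. Without EC Day 0 replicates 1 and 2 the calls over all genes fell to 98 above and 234 below. Of the 39 matrix genes 5 were above and 3 below, of the 30 oxidative phosphorylation genes none was above and 4 were below, and of 9 complement genes none differed. Rac1 rose more in EC (0.38 ± 0.10, adjusted p = 0.0139), but had an adjusted p of 0.238 for that difference without EC Day 0 replicates 1 and 2.

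**Figure D5:**
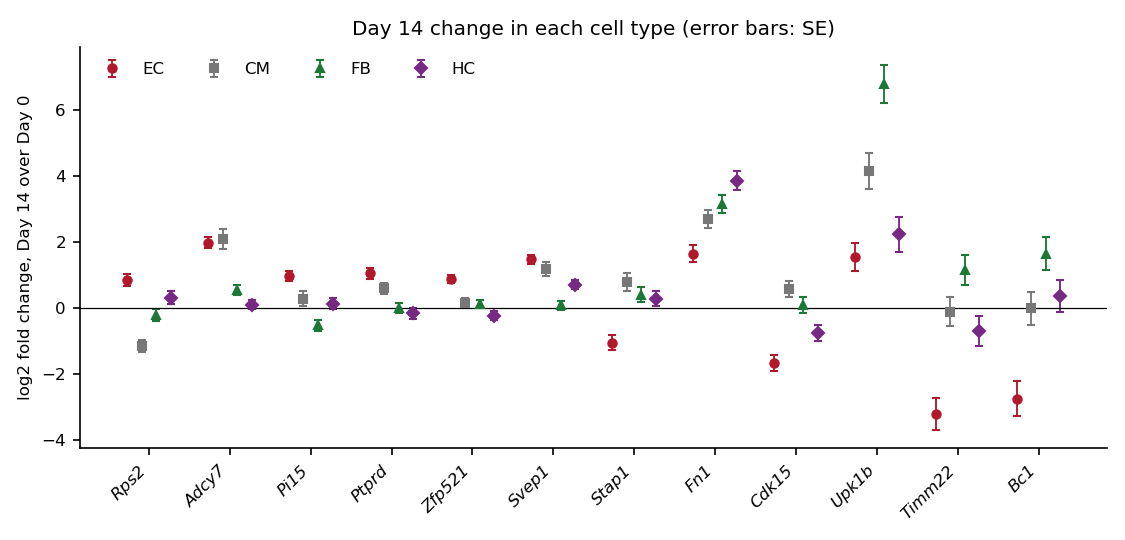
Log2 fold change of Day 14 over Day 0 in EC, CM, FB and HC (error bars, SE) for genes whose change in EC differed from the mean of the other types. Values above 0 mean higher at Day 14. Bc1 and Timm22 fell in EC (-2.75 and -3.21) and not to that extent in the other types, and Fn1 rose by 1.65 in EC and by 2.71 to 3.86 in the others.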

How the data were processed

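Total RNA was sequenced from EC, CM, FB and HC of mouse hearts. Per the labels, RNA was fragmented, tailed and copied by template switching after depletion of rRNA, and the authors trimmed reads with Trim Galore and used STAR and Salmon with the mm10 genome (GRCm38). Each deposited table holds the authors' estimated counts, the reads that Salmon assigns to a transcript or gene, and their TPM values, which divide by effective length and scale each library to a fixed total. EC tables hold 137734 transcripts, of which 1057 matched no gene of GENCODE M21 and were left out. The others were summed to 50973 genes. The deposited counts are estimates and cover all reads of a library, so p-values do not include the error of assigning reads.

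Estimated counts were rounded and tested in R 4.3.3 with edgeR 4.0.16 (TMM, filterByExpr by group, robust quasi-likelihood fit), with the 24 EC libraries fitted together and no covariate. The comparison between cell types used 32 libraries, with rRNA genes left out before scaling. The Benjamini-Hochberg adjustment ran over all genes or transcripts of a comparison, and adjusted p under 0.05 was a call. The SE of a change is its size over the square root of F, and a value after ± beside a mean is an SD. The fits were tested on simulated data.

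Genes named are the 12 highest and 12 lowest that were called with and without EC Day 0 replicates 1 and 2, had at least 10 CPM on average, a symbol that is not of a clone or small RNA, and no overlap of groups. Also named are up to 4 called members of each of 52 gene lists with the largest changes, the markers of the 4 cell types, Rac1 and Cdc42, 4 highest and 4 lowest genes of each comparison with another day, and 6 and 6 of the comparison between cell types. The members and lists were chosen with earlier results of these data known. Alternatives were DESeq2 1.42.0 (Wald test and size factors), limma 3.58.1 on log2(TPM + 1) and log2(TPM + 0.1), no filter, the replicate number as a block, the 8 libraries alone, rRNA genes or genes opposite an abundant gene left out, and libraries left out. Chosen after seeing the data were leaving out Day 0 replicates 3 and 4, leaving out rRNA and mitochondrial genes, the replicate number within each day as a block between cell types, and centring log2(TPM + 1) on each library's median. Promoter windows were searched on both strands. Some items are not reported here.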

Additional observations from a re-analysis of the deposited data

Results flagged for a closer look

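Of 134 groups of 4 libraries examined, for the genes given by library, 6 held 1 library whose gap to its nearest neighbour took more of the range of the group than the 95% critical value of Dixon allows, and chance gives about 1 in 20 such groups. This ratio was 0.913 for Lox at Day 0, where replicate 1 was the highest. It was 0.861 for Tcap at Day 14 (replicate 1 highest) and 0.888 for Rps2 at Day 0 (replicate 4 highest). Day 14 replicate 4 stood apart in both receptors for VEGF-A, with a ratio of 0.977 for Flt1, where it was the highest, and 0.924 for Kdr, where it was the lowest. For Selp at Day 0 the ratio was 0.861, with replicate 1 the highest.

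The Day 14 change in EC differed from the mean change in CM, FB and HC by the edgeR interaction test in 12 named genes. The difference was positive, on the log2 scale, for Rps2 (1.21), Adcy7 (1.07), Pi15 (1.01), Ptprd (0.91), Zfp521 (0.86) and Svep1 (0.82). It was negative for Bc1 (-3.42), Timm22 (-3.33), Upk1b (-2.85), Cdk15 (-1.63), Fn1 (-1.60) and Stap1 (-1.54).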

How the results depend on the processing

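Of 147 genes followed through the alternatives 129 were called between Day 14 and Day 0 in EC. None changed sign under a count-based alternative, and DESeq2's Wald test kept all 129. With 1 library left out, between 2 (Day 0 replicate 4) and 8 (Day 0 replicate 2, Day 14 replicates 2 and 3) of them lost the call, Flt1, Tcf15, Meox2, Esm1, Notch1, Gbp7, Hist1h3b and Hist1h3c at least 3 times each. Leaving out Day 0 replicates 1 and 2 together cost 33 calls and leaving out replicates 3 and 4 together 13. A fit of only the 8 libraries cost 14 calls, no filter on low counts 5 and DESeq2 size factors 2. Leaving out rRNA genes, rRNA and mitochondrial genes, or genes opposite an abundant gene cost 1 call each.

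The 2317 genes higher became 795 without Day 0 replicates 1 and 2 and 3494 without replicates 3 and 4, and the 2590 lower became 765 without replicates 1 and 2. Leaving out 1 library gave 1585 to 2992 higher and 1644 to 3369 lower, the lowest numbers lower being without Day 0 replicate 2 (1644) and replicate 1 (1686). For transcripts (1884 higher and 2582 lower) the numbers were 1046 and 1629 without the filter, 243 and 184 without Day 0 replicates 1 and 2, and 904 to 3762 and 1254 to 4059 with 1 library left out, lowest without Day 0 replicate 1 and highest without replicate 4. For EC against the other cell types (796 above and 1243 below) they were 432 above without the filter, 98 and 234 without EC Day 0 replicates 1 and 2, and 343 to 1495 and 632 to 1944 with 1 EC library left out, again lowest without Day 0 replicate 1 and highest without replicate 4. For Day 14 against Day 7 (46 and 371) they were 14 and 231 without the filter, 94 and 629 by DESeq2, 10 and 171 by limma on log2(TPM + 1), and 9 to 50 and 120 to 360 with 1 library left out. For Day 28 against Day 14 (42 and 136) they were 12 and 70 without the filter, 231 and 425 by DESeq2, 201 and 27 by limma, and 0 to 37 and 10 to 214 with 1 library left out, the fewest without Day 14 replicate 1. The causes were not tested.

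On TPM values the numbers were 11243 higher and 141 lower with a pseudocount of 1, 11751 and 124 with 0.1, and 2889 and 6520 with log2(TPM + 1) centred on each library's median. The median over genes tested was 0.42, 0.80 and -0.13, beside the shares of mitochondrial tRNA given above. Genes with a negative change on counts turned positive. Their log2 fold changes with the pseudocounts 1 and 0.1 were 0.19 and 0.21 for Ckm, 0.76 and 0.78 for Flt1, 0.054 and 0.073 for Kcnj8, 0.37 and 0.38 for Rgs5, 0.39 and 0.44 for Abcc9, 0.31 and 0.32 for Tcf15, 0.12 and 0.14 for Meox2, 0.74 and 0.81 for Fli1, 0.58 and 0.61 for Klf4, 1.17 and 1.17 for Fabp4, 0.27 and 0.38 for Ifit1, 0.40 and 0.48 for Gbp7, 0.52 and 0.57 for Gapdh, 0.27 and 0.44 for Hk2, 0.54 and 0.61 for Egln1, 0.12 and 0.12 for Rpl5, 0.77 and 0.79 for Kdr, 1.09 and 1.24 for Spaca6, 0.42 and 0.96 for Crispld1 and 0.83 and 0.86 for Ankrd1. With a pseudocount of 1 alone Gpr22 turned positive (0.017). After centring Flt1 (0.22), Fli1 (0.20), Klf4 (0.039), Fabp4 (0.62) and Spaca6 (0.55) stayed positive, and Adgre1 (-0.40), Vegfd (-0.075), F8 (-0.14), Inhbb (-0.13), Ccne1 (-0.36), Bub1 (-0.12), Egr2 (-0.055), Ptprc (-0.42) and Pi15 (-0.035), with positive changes on counts, turned negative. On TPM values 16 named genes lost the call with either pseudocount and 25 after centring. Reads of low genes are few, so a missed call there does not show equal levels.

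Over all genes tested, same-numbered Day 14 and Day 0 libraries did not deviate together (correlations -0.0332, -0.0723, 0.00925 and 0.0398). Such correlations cannot exclude shared handling of same-numbered pools that shows in only some genes. With the number as a block, 2189 genes were higher and 2382 lower, 1762 and 2282 transcripts, 799 and 1139 genes between cell types, 24 and 283 for Day 14 against Day 7, and 25 and 93 for Day 28 against Day 14, and Flt1 (adjusted p = 0.0544) and Esm1 (0.0613) lost their call, as did the transcripts Flt1-202 (0.0588) and Fn1-216 (0.0518), Lims2 (0.061) and Crispld1 (0.0526) against Day 7, and Dpep1 (0.063) and Smoc2 (0.0579) at Day 28. Between cell types, a block of the number within each day kept the call of all 12 named genes.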
